A study of Mus musculus with 6 samples.

Results

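Transcripts of the blood clotting cascade, of its inhibitors and of the plasminogen system were examined in mouse livers with and without the peroxisomal import receptor Pex5 in hepatocytes. The list holds 35 genes, picked by name for their role, though earlier results of these data were known. Of these, 34 have a probe set that the platform annotation assigns to that gene alone, out of 18193 genes measured in this way. The remaining gene, Cpb2, was not analysed here. By role, 17 measured genes are procoagulant, 9 are anticoagulant and 5 belong to fibrinolysis, while 2 enzymes of the vitamin K cycle and the thrombin receptor F2r stand apart.

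Total RNA of 6 livers was hybridised to 6 Affymetrix arrays, 3 from wild-type mice (WT) and 3 from mice whose genotype the labels give as L Pex5 -/- (KO). All were males of 10 weeks. The labels write the same genetic background for both groups, mixed with Alb-Cre and Tac:[Sw]fBR, so the controls are listed with the Cre recombinase too. The albumin promoter drives it in hepatocytes, which leaves Pex5 in the endothelial, Kupffer and stellate cells that liver tissue also holds. Levels are given in log2, a difference is the KO mean minus the WT mean, errors are the SE of the limma fit unless an SD is named, and adjusted p-values are Benjamini-Hochberg values of limma over all 18193 genes with a threshold of 0.05. The design text calls the arrays biological replicates and the labels name no batch.

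Hepatocytes secrete most clotting factors into plasma as inactive precursors. Tissue factor with factor VII, or the contact factors XII and XI with prekallikrein and kininogen, start a chain of proteases that ends in thrombin, which turns fibrinogen into fibrin. Antithrombin, heparin cofactor II and the protein C, protein S and protein Z systems restrain it, and plasmin, made from plasminogen, dissolves the clot. Several of these proteins work only after a vitamin K-dependent carboxylation of glutamate residues in the liver. Tissue factor, thrombomodulin, the endothelial protein C receptor, von Willebrand factor, factor VIII, factor XIII A and the plasminogen activators come largely from cells other than hepatocytes.

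Of the 34 measured genes, 17 fell and 3 rose in KO livers, where 9.75% of all genes fell and 14.2% rose. The share of the 34 that fell was 50.0% and the share that rose was 8.82%. The rises were F3, F2r and the brighter of the probe sets of Kng1, and they numbered 0 without KO replicate 1, 2 or 3 and 1 without WT replicate 2 or 3. Their median difference was -0.42, against -0.05 over all genes. In 19 of them the 3 KO arrays lay wholly below the 3 WT arrays and in 3 wholly above, where 22.6% and 22.1% of all genes did so. The mean level of 30 of the 34 exceeded the background of 4.90, which is the 95th percentile of 39 olfactory receptor genes, and among the 12042 genes above it 11.7% fell and 20.3% rose. Of the 24 genes made mainly by hepatocytes, which include the vitamin K enzymes, 17 fell and 1 rose, with a median of -0.54. Of the 10 others 0 fell and 2 rose, with a median of -0.08. Array means in WT were 11.98 to 12.06 for the 24 and 5.51 to 5.62 for the 10. The 10 include F13a1, Plat and Plau, under background on all arrays, and Procr, so falls in them could hardly be seen. The difference between the sources was not tested.

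All these directions compare a gene with the majority of genes on the array, which the deposited normalization holds level. Most control probe sets were dimmer on the KO arrays. Across 38 bacterial control probe sets other than Cre and Trp the difference ran from -0.74 to -0.29. Across 4 Cre probe sets it ran from -0.15 to -0.01 and across 3 Trp probe sets from -0.09 to 0.05. In this report, spiked controls is a label for the 38 alone, and leaves out Cre and Trp, which moved less. The label does not say whether Cre and Trp were spiked too. Centring the arrays on these 38, a choice made after the control values were seen, added 0.51 to every difference and left 8 of the 34 genes lower and 13 higher, with 2.25% of all genes lower and 71.3% higher. The planned centring on 45 control probe sets, the Cre and Trp controls included, added 0.44 and gave 8 lower and 11 higher, with 2.61% of all genes lower and 60.9% higher. The 8 genes F7, F9, F11, Klkb1, Pros1, Proz, Serpinf2 and Hrg fell under all 17 alternatives, both centrings included. With quantile normalization 17 genes fell and 0 rose.

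**Figure D1:**
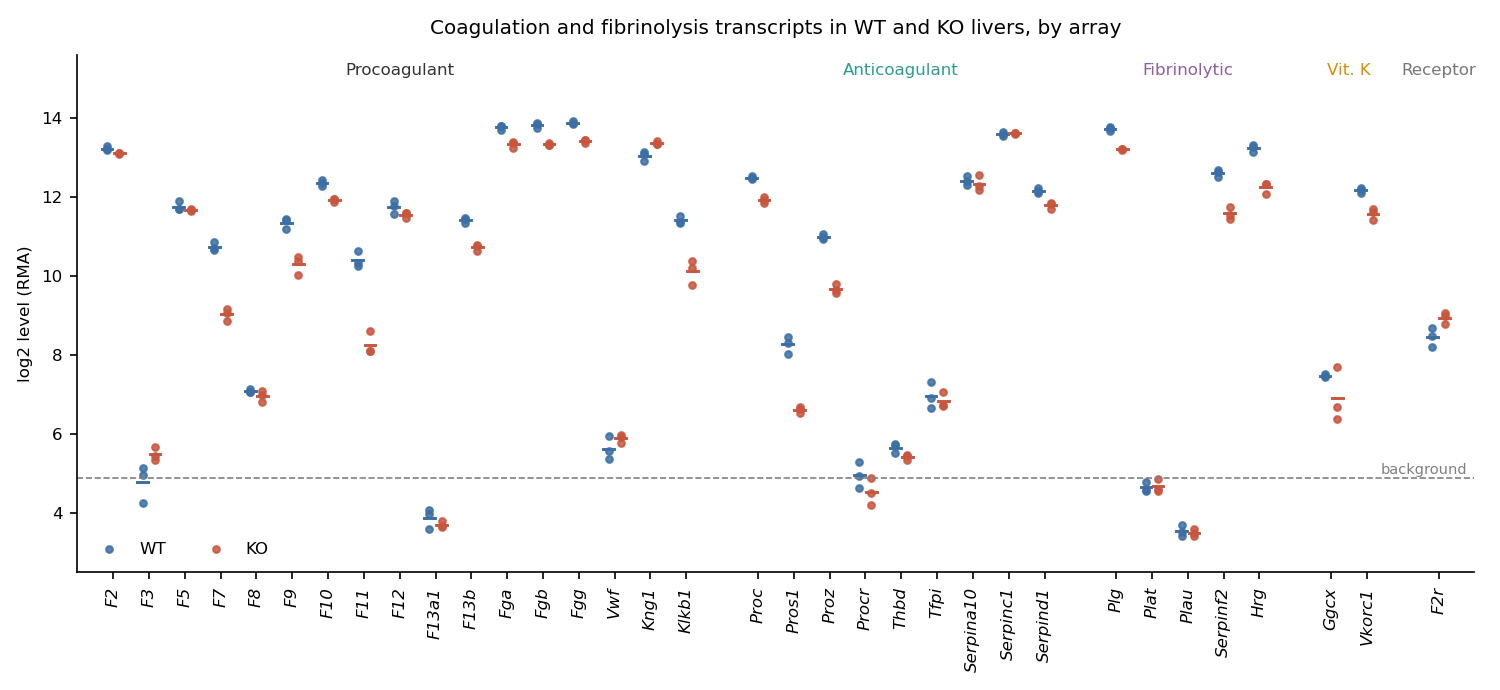
Log2 level of each measured gene (vertical axis) by gene and role (horizontal axis), with 1 point per liver, blue for the 3 WT and red for the 3 KO arrays, and a short line at each group mean. The dashed line is the background of 4.90. In the deposited normalization KO points lie wholly below WT points in 19 genes, and F13a1, Plat and Plau lie under the background on all arrays.

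**Figure D2:**
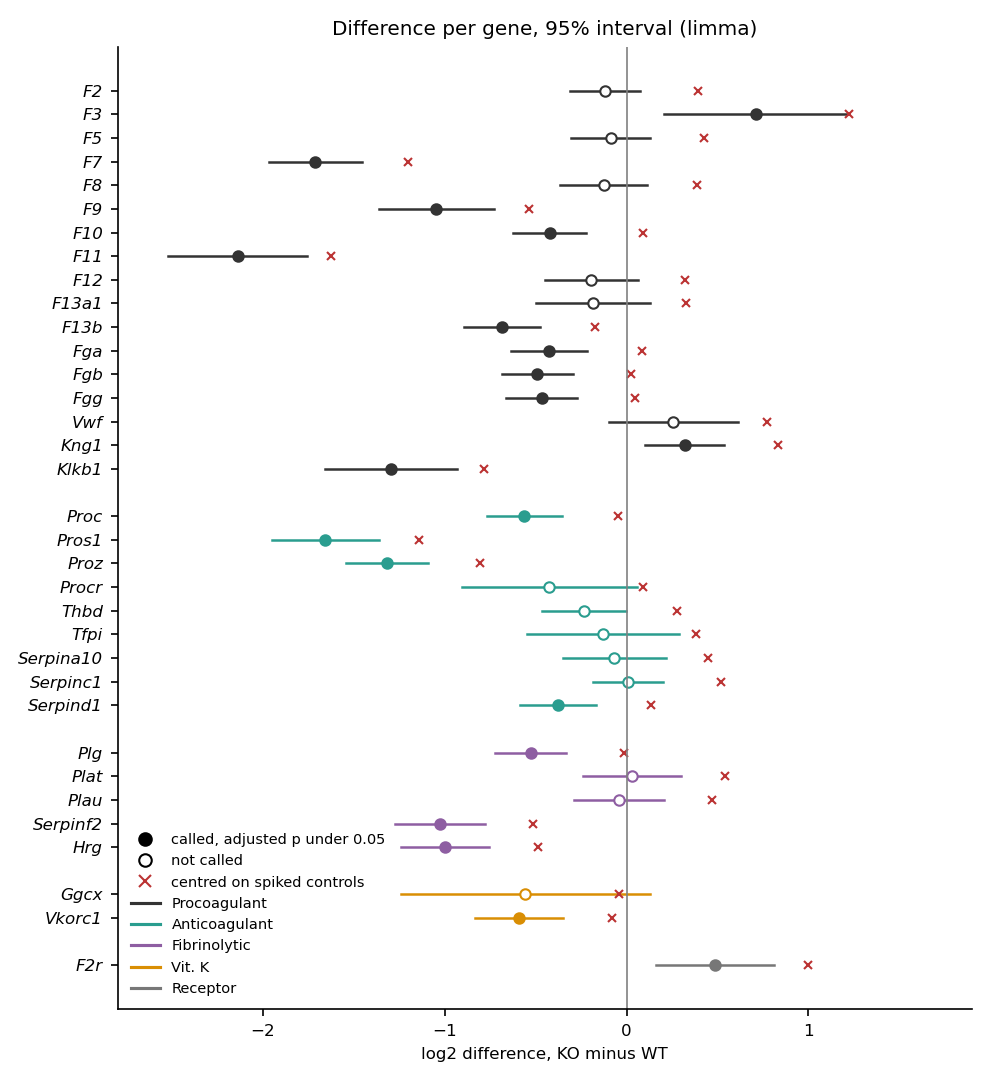
KO minus WT difference on the log2 scale (horizontal axis) per gene (vertical axis), with its 95% interval from limma. Filled circles passed the threshold, open circles did not, colours give the role, and red crosses give the value with the arrays centred on 38 spiked control probe sets, where 8 genes remain called lower.

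The sequences before the start sites are shown for 9 genes: the 8 that fell under all alternatives, and Serpinc1, which is the hepatocyte-made factor with the smallest difference. RefSeq promoter windows (GRCm38.p6) matched 27 of the 35 genes, and the 250 bases before the annotated start are printed 5′ to 3′ on the strand of the gene. The windows are chr8:45262032-45262281 (minus strand) for F11, chr8:45294836-45295085 (minus) for Klkb1, chr8:13025784-13026033 (plus) for F7, chrX:59999214-59999463 (plus) for F9, chr16:22950822-22951071 (plus) for Hrg, chr16:62854057-62854306 (plus) for Pros1, chr8:13060658-13060907 (plus) for Proz, chr11:75439502-75439751 (minus) for Serpinf2 and chr1:160978333-160978582 (plus) for Serpinc1. Capitals mark matches, on either strand, to CAAAGNNCA, letters of the HNF4 site, to the HNF1 site, or to TTGCNNAA, letters of the C/EBP site. HNF4, HNF1 and C/EBP are families of transcription factors that act on many liver genes.
F11: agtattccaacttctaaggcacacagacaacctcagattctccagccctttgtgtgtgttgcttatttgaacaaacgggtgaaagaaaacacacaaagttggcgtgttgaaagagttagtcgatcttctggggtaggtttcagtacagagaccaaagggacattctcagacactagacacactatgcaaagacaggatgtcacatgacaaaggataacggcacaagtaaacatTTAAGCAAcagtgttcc
Klkb1: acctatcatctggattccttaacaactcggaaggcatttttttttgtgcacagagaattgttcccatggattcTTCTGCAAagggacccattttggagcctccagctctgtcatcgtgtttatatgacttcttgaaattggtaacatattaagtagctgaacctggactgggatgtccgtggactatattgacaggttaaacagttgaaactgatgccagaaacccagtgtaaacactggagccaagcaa
F7: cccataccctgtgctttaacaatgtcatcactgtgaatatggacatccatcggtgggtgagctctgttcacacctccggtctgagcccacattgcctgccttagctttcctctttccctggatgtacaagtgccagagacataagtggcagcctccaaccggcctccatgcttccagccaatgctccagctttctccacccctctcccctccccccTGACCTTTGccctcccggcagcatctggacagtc
F9: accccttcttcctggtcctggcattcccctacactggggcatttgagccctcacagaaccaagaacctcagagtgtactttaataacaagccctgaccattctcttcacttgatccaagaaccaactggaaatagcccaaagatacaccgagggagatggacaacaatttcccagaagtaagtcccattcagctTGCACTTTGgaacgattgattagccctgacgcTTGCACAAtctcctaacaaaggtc
Hrg: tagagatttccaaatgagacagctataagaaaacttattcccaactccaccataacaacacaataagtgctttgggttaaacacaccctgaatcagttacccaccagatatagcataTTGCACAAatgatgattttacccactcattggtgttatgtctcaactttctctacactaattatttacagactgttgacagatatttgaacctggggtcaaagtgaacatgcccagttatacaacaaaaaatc
Pros1: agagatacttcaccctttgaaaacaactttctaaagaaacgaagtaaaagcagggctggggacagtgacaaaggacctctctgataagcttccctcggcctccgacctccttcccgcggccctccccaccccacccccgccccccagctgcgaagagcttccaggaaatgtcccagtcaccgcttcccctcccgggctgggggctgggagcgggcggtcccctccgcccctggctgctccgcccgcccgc
Proz: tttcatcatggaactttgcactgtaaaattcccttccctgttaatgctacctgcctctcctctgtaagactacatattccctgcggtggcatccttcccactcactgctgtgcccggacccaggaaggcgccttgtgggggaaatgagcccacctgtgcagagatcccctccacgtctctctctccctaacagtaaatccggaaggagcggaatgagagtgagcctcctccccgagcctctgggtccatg
Serpinf2: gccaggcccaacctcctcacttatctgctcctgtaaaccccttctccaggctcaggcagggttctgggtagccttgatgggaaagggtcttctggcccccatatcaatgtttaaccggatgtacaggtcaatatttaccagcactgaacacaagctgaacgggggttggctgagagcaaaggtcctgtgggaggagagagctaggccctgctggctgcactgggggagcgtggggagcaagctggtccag
Serpinc1: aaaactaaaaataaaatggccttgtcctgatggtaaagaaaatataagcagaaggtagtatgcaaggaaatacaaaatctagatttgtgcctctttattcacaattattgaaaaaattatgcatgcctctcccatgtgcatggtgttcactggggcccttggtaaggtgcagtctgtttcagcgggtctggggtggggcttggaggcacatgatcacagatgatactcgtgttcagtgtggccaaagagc

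The C/EBP letters stood in the windows of 8 of the 27 genes and in 9.56% of all 32851 windows. They were found in 6 of the 15 genes with a window that fell, which are F9, F11, Fga, Fgb, Hrg and Klkb1, and in 2 of the 12 others, Ggcx and Procr. The HNF4 letters stood in 3 of the 27, F7, F9 and Fga, and in 5.49% of all windows. The HNF1 site stood in 1, F13b, which fell, and in 0.371% of all windows. In F9 the HNF4 match begins 56 and the C/EBP match 24 bases before the start, and the matches do not overlap. In F7 the HNF4 match begins 34 bases before the start. The windows of F11, Klkb1 and Hrg hold a C/EBP match beginning 17, 177 and 133 bases before the start, and those of Pros1, Proz, Serpinf2 and Serpinc1 hold none of the 3 motifs. Of the factors themselves, Hnf4a differed by 0.11 ± 0.11 (adjusted p = 0.514), Cebpa by -0.33 ± 0.13 (adjusted p = 0.109) and Cebpb by -0.34 ± 0.23 (adjusted p = 0.308), and none of these passed. A match says only that the letters are present, and the motifs were chosen with the results known.

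Factor VII and its receptor, which begin clotting after injury, moved in opposite directions. F7, which encodes the protease factor VII, stood at 10.87, 10.66 and 10.73 in WT and at 9.18, 8.88 and 9.07 in KO. All 3 KO livers lay more than a log2 unit below every WT liver, and the level was 3.28-fold lower (-1.71 ± 0.11, adjusted p = 4.94e-05). F3, which encodes tissue factor, the membrane receptor of factor VII, stood at 4.97, 5.13 and 4.26 in WT and 5.46, 5.68 and 5.35 in KO. These levels are close to background, with 1 WT array under it, and the rise of 0.71 ± 0.22 barely passed (adjusted p = 0.0488, with a range of 0.00172 to 0.161 over 17 alternatives). It did not pass without WT replicate 1 (0.0577) or KO replicate 1, 2 or 3 (0.114, 0.161 and 0.0815).

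In the contact system, which starts clotting on charged surfaces, the proteases F11 and Klkb1 fell while F12 did not pass. F11 stood at 10.34, 10.64 and 10.26 in WT and at 8.61, 8.11 and 8.10 in KO. It had the largest fall of the 34 genes, 4.40-fold (-2.14 ± 0.17, adjusted p = 0.000114). Centred on the spiked controls, the difference was -1.63. Klkb1, which encodes prekallikrein, the protease that activates factor XII and frees bradykinin, went from 11.53, 11.35 and 11.38 to 10.22, 9.78 and 10.38. The groups did not overlap and the fall was 2.45-fold (-1.29 ± 0.16, adjusted p = 0.00104).

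F12, the first protease of this system, stood at 11.92, 11.79 and 11.58 in WT and 11.61, 11.48 and 11.60 in KO. The groups overlapped, the difference was -0.19 ± 0.11 (adjusted p = 0.234) and its 95% interval ran from -0.45 to 0.06. Kng1, which encodes high-molecular-weight kininogen, the carrier of factor XI and prekallikrein and source of bradykinin, gave opposite answers in its probe sets. The brighter one was higher in every KO liver, at 13.36, 13.43 and 13.34 against 13.14, 12.93 and 13.10 (0.32 ± 0.09, adjusted p = 0.0431), and the other was lower in every KO liver, at 11.93, 11.90 and 11.99 against 12.40, 12.24 and 12.31 (-0.38 ± 0.09). In a limma fit over all probe sets their adjusted p-values were 0.0509 and 0.0230. Mouse has the paralogue Kng2 beside Kng1, and no probe set was assigned to it alone, so the direction of Kng1 is uncertain. The brighter probe set did not pass without WT replicate 2 or 3 (adjusted p = 0.112 and 0.0541) or KO replicate 1, 2 or 3 (0.113, 0.144 and 0.0879).

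Factor IX fell and its cofactor did not pass. F9, the protease that haemophilia B lacks, stood at 11.42, 11.44 and 11.21 in WT and 10.39, 10.04 and 10.50 in KO. Every KO liver was below every WT liver, by 2.07-fold on average (-1.05 ± 0.14, adjusted p = 0.00149). F8, the cofactor made in liver mainly by endothelial cells, stood at 7.15, 7.08 and 7.07 against 7.0, 6.81 and 7.11. The groups overlapped (-0.13 ± 0.10, adjusted p = 0.396).

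Where both arms of the cascade meet, F10 fell slightly while F5 and F2 did not pass. F10, the protease that makes thrombin, stood at 12.43, 12.30 and 12.36 in WT and 11.96, 11.89 and 11.97 in KO (-0.42 ± 0.09, adjusted p = 0.0111). Its 3 probe sets gave values between -0.51 and -0.42. Centred on the spiked controls the value was 0.09, and without KO replicate 2 it did not pass (adjusted p = 0.0521). F5, the cofactor of factor X, differed by -0.09 ± 0.09 (adjusted p = 0.525, interval -0.31 to 0.13). F2, which encodes prothrombin, stood at 13.29, 13.22 and 13.20 in WT and 13.13, 13.13 and 13.11 in KO. Its groups did not overlap, but the difference of -0.12 ± 0.08 did not pass (adjusted p = 0.332).

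The 3 fibrinogen chains fell by nearly the same amount in the deposited normalization, and stood near 0 when the arrays were centred on control probe sets. Fgb, the beta chain, stood at 13.88, 13.86 and 13.77 in WT and 13.33, 13.33 and 13.38 in KO (-0.49 ± 0.09, adjusted p = 0.00533). Fga differed by -0.43 ± 0.09 (adjusted p = 0.0121) and Fgg by -0.47 ± 0.08 (adjusted p = 0.00639). The KO arrays of each chain lay wholly below the WT arrays. The chains are bright, with WT means of 13.77 to 13.89. In some bright genes a dimmer probe set fell more, with -0.91 and -1.01 against -0.38 for Tdo2 and -0.53 against -0.07 for Apob. For F5 the dimmer one gave -0.02 against -0.09. Whether bright probe sets understate the differences of the chains, Plg, F2 and Serpinc1 was not tested. These falls are close in size to the shift of the spiked controls, and with that centring the chains stood at 0.09, 0.02 and 0.05 in the order Fga, Fgb and Fgg. Fga lost its call without KO replicate 2 (adjusted p = 0.056).

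The 2 subunits of factor XIII, which crosslinks fibrin, come from different cells. F13b, the carrier subunit secreted by hepatocytes, fell from 11.44, 11.36 and 11.47 to 10.77, 10.65 and 10.80 (-0.69 ± 0.09, adjusted p = 0.00152), a difference that was -0.17 and not called with the arrays centred on the spiked controls (adjusted p = 0.152). F13a1, the catalytic subunit of platelets and macrophages, was under background on all 6 arrays, between 3.61 and 4.09. Vwf, the endothelial and platelet protein that tethers platelets and carries factor VIII, stood at 5.97, 5.38 and 5.57 in WT and 5.93, 5.78 and 5.98 in KO. Those groups overlapped (0.26 ± 0.15, adjusted p = 0.249), and without WT replicate 1 the difference passed (0.42, adjusted p = 0.0417).

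Among the 9 anticoagulant genes 4 fell and 0 rose (9.75% and 14.2% of all genes), with a median of -0.38. Pros1, which encodes protein S, the cofactor of activated protein C, stood at 8.48, 8.32 and 8.03 in WT and 6.54, 6.63 and 6.68 in KO. The gap between the groups exceeded a log2 unit, and the fall was 3.15-fold (-1.66 ± 0.13, adjusted p = 0.00011). Proc, which encodes protein C, the protease that inactivates factors V and VIII, went from 12.55, 12.46 and 12.49 to 11.95, 11.85 and 12.02 (-0.56 ± 0.09, adjusted p = 0.00363), and differed by -0.05 with the arrays centred on the spiked controls. The membrane partners of this pathway did not pass: Thbd, thrombomodulin, differed by -0.23 ± 0.10 (adjusted p = 0.122) and Procr, the endothelial receptor of protein C, by -0.42 ± 0.21 (adjusted p = 0.174). Procr was under background on 3 KO arrays and 1 WT array.

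Proz fell and the inhibitor it serves did not pass. Proz, which encodes protein Z, a cofactor that places its partner on factor Xa, stood at 10.99, 10.95 and 11.08 in WT and 9.65, 9.59 and 9.82 in KO. The fall was 2.5-fold (-1.32 ± 0.10, adjusted p = 9.36e-05) in its brighter probe set and -1.61 ± 0.12 in the other. Serpina10, the protein Z-dependent inhibitor, stood at 12.40, 12.55 and 12.30 against 12.29, 12.20 and 12.57. Its groups overlapped (-0.07 ± 0.12, adjusted p = 0.716, interval -0.35 to 0.22).

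Of the remaining inhibitors only Serpind1 passed. Serpinc1, which encodes antithrombin, the main plasma inhibitor of thrombin and factor Xa, stood at 13.66, 13.56 and 13.62 in WT and 13.64, 13.62 and 13.60 in KO. The groups overlapped, with a difference of 0.01 ± 0.08 (adjusted p = 0.947) and an interval from -0.18 to 0.20. With the arrays centred on the spiked controls it was higher, by 0.52 (adjusted p = 0.00142). Serpind1, heparin cofactor II, fell by 0.38 ± 0.09 (adjusted p = 0.0201), a call lost without WT replicate 1 (0.0505) or KO replicate 1, 2 or 3 (0.0553, 0.0844 and 0.0519), and a value of 0.14 with the arrays centred on the spiked controls. Tfpi, the tissue factor pathway inhibitor, differed by -0.13 ± 0.18 (adjusted p = 0.626), and its 4 probe sets gave -0.24 to -0.0044.

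In the plasminogen system 3 of 5 measured genes fell and 0 rose (9.75% and 14.2% of all genes), with a median of -0.53, and those 3 are the ones made by hepatocytes. Plg, plasminogen, stood at 13.79, 13.68 and 13.77 in WT and 13.23, 13.22 and 13.20 in KO (-0.53 ± 0.08, adjusted p = 0.00376), and differed by -0.01 with the arrays centred on the spiked controls. Serpinf2, alpha2-antiplasmin, the main plasmin inhibitor, went from 12.70, 12.52 and 12.64 to 11.56, 11.46 and 11.76. Every KO liver was below every WT liver, by 2.04-fold on average (-1.03 ± 0.11, adjusted p = 0.000531). Hrg, histidine-rich glycoprotein, a plasma protein that binds plasminogen, heparin and fibrinogen, went from 13.32, 13.16 and 13.28 to 12.34, 12.09 and 12.34, without overlap (-0.999 ± 0.106, adjusted p = 0.000557). The activators Plat, tissue-type, and Plau, urokinase, lay under background on all 6 arrays, between 4.56 and 4.88 and between 3.42 and 3.70, so that no change in them can be read from these arrays.

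Across the roles, the genes that depend on vitamin K shared a direction in the deposited normalization, while F2 and F10 stood at 0.40 and 0.09 when the arrays were centred on the spiked controls. In all 7 of them, F2, F7, F9, F10, Proc, Pros1 and Proz, the KO arrays lay wholly below the WT arrays (22.6% of all genes did so), and 6 of the 7 fell (9.75% of all genes), with a median of -1.05. Vkorc1, the reductase that recycles vitamin K and the target of warfarin, fell from 12.19, 12.11 and 12.25 to 11.63, 11.43 and 11.71 (-0.59 ± 0.10, adjusted p = 0.00565), and differed by -0.08 with the arrays centred on the spiked controls. Ggcx, the carboxylase, stood at 7.53, 7.44 and 7.48 in WT and 6.69, 7.71 and 6.38 in KO. KO replicate 2 was above all WT arrays and the other two were below them, so the difference of -0.56 ± 0.30 did not pass (adjusted p = 0.205). Without KO replicate 2 it was -0.95 (adjusted p = 0.00517), and the second probe set of Ggcx was lower in all KO arrays, at 5.70, 5.99 and 5.36 against 6.69, 6.67 and 6.64 (-0.99 ± 0.15, adjusted p = 0.00376 over all probe sets).

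F2r, which encodes the thrombin receptor PAR1 of non-parenchymal cells, was among the 3 genes that rose. It stood at 8.69, 8.50 and 8.22 in WT and 8.78, 9.08 and 8.99 in KO, a narrow separation (0.49 ± 0.14, adjusted p = 0.0413, with a range of 0.000669 to 0.145 over 17 alternatives). The second probe set gave 0.43 ± 0.12. It did not pass without WT replicate 2 or 3 (adjusted p = 0.0806 and 0.081) or KO replicate 1, 2 or 3 (0.0568, 0.145 and 0.109).

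**Figure D3:**
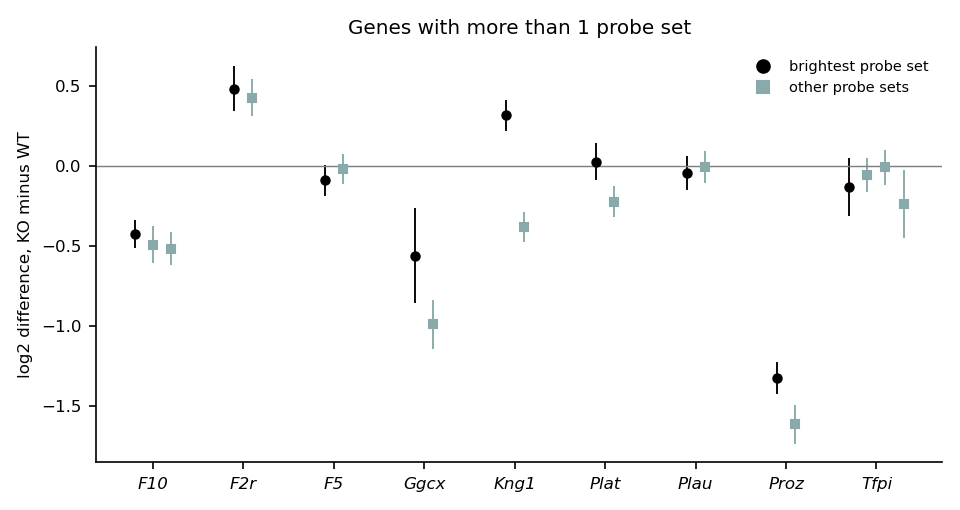
KO minus WT difference on the log2 scale with its SE (vertical axis) for the 9 genes with more than 1 probe set (horizontal axis), black circles for the brightest probe set and grey squares for the others. In the deposited normalization the probe sets of F10, F2r and Proz lie on one side of 0 (centring on the spiked controls turns F10 to 0.09), while those of Kng1 stand at 0.32 and -0.38.

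The contrast between the roles depended on the dim genes. The median difference was -0.42 over 17 procoagulant, -0.38 over 9 anticoagulant and -0.53 over 5 fibrinolytic genes. In that order the falls numbered 9, 4 and 3 (52.9%, 44.4% and 60.0%, against 9.75% of all genes). The rises numbered 2, 0 and 0 (14.2% of all genes rose). The fibrinolytic genes hold plasminogen and its activators together with Serpinf2, the main plasmin inhibitor. Their median therefore gives no direction for fibrinolysis itself. With the genes under background left out, the medians were -0.42, -0.31 and -0.999, because Plat and Plau leave the fibrinolytic genes. Within an array, the median level of the procoagulant genes minus that of the anticoagulant genes was 0.53, 0.49 and 0.40 in WT and 1.11, 1.06 and 0.99 in KO, without overlap. The anticoagulant median is the level of Proz on all 6 arrays, and the procoagulant median is that of Klkb1, F9 or F13b in WT and of F13b in KO, so this difference rests on single genes. Besides F3, the procoagulant genes held a rise in the brighter probe set of Kng1, whose direction is uncertain, and the other 2 roles held none. Within each role the differences spread far more widely, from -2.14 to 0.71, from -1.66 to 0.01 and from -1.03 to 0.03.

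Ratios of 2 transcripts within an array do not depend on the centring of the array, so functional partners were compared in this way, for 15 pairs chosen after the values were seen. For F11 against F12 the log2 ratio stood at -1.58, -1.15 and -1.31 in WT and -3.00, -3.37 and -3.50 in KO, a change of -1.94. Protein Z against its inhibitor, Proz to Serpina10, changed by -1.25, from -1.41 ± 0.19 to -2.67 ± 0.07 (SD, n = 3). Factor IX against factor VIII changed by -0.92, protein S against protein C by -1.09 and alpha2-antiplasmin against plasminogen by -0.50. Factor X against factor V changed by -0.33. In these pairs the KO arrays lay wholly below the WT arrays, and the exact two-sided permutation test gave 0.1 for each, the smallest value that 3 against 3 arrays allow. Because of the choice of pairs, this separation is a description and no independent support. The beta chain of fibrinogen against plasminogen averaged 0.09 ± 0.09 over WT and 0.13 ± 0.04 over KO arrays (SD, n = 3), with overlap, a change of 0.04 (exact permutation p = 0.5).

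**Figure D4:**
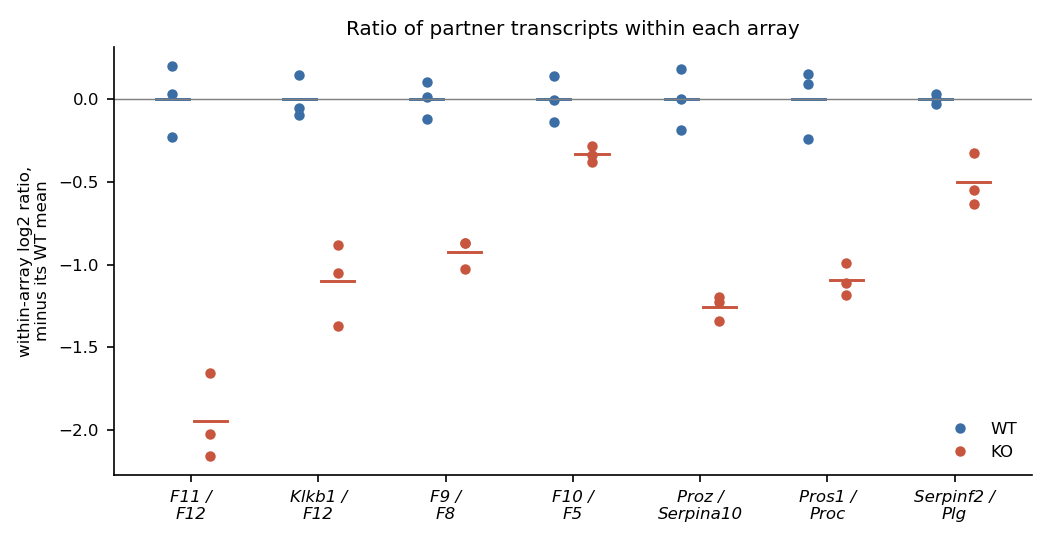
Log2 ratio of partner transcripts within each array, minus the WT mean of that ratio (vertical axis), for 7 pairs (horizontal axis), with 1 point per liver, blue for WT and red for KO, and a line at each group mean. The KO points lie below the WT points in every pair shown, and the change runs from -1.94 for F11 to F12 up to -0.33 for F10 to F5. The pairs were chosen after the values were seen, and Fgb to Plg, where the groups overlapped, is not shown.

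Several of these genes neighbour each other in the RefSeq gene order (GRCm38.p6), and their falls were set beside those of the flanking genes. F7, F10 and Proz follow one another on chromosome 8 and fell (-1.71, -0.42 and -1.32). Within the arrays, F7 changed by -1.29 and Proz by -0.90 relative to F10, which lies between them, without overlap of the groups. The adjacent genes Mcf2l and Pcid2 differed by -0.24 and -0.13 and did not pass, and Atp11a, the next beyond Mcf2l, fell by 2.40. F11 and Klkb1 are adjacent on another stretch of chromosome 8, with Cyp4v3, a fatty acid omega-hydroxylase, after Klkb1, and all 3 fell (-2.14, -1.29 and -1.5). Mtnr1a on the other side differed by -0.03. The fibrinogen genes lie together on chromosome 3, and neither flanking gene, Lrat or Plrg1, passed (0.31 and 0.29). On chromosome 16, Hrg fell beside Fetub (-0.74 ± 0.16), while Ahsg, the fetuin gene beyond it, rose (0.28 ± 0.08).

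**Figure D5:**
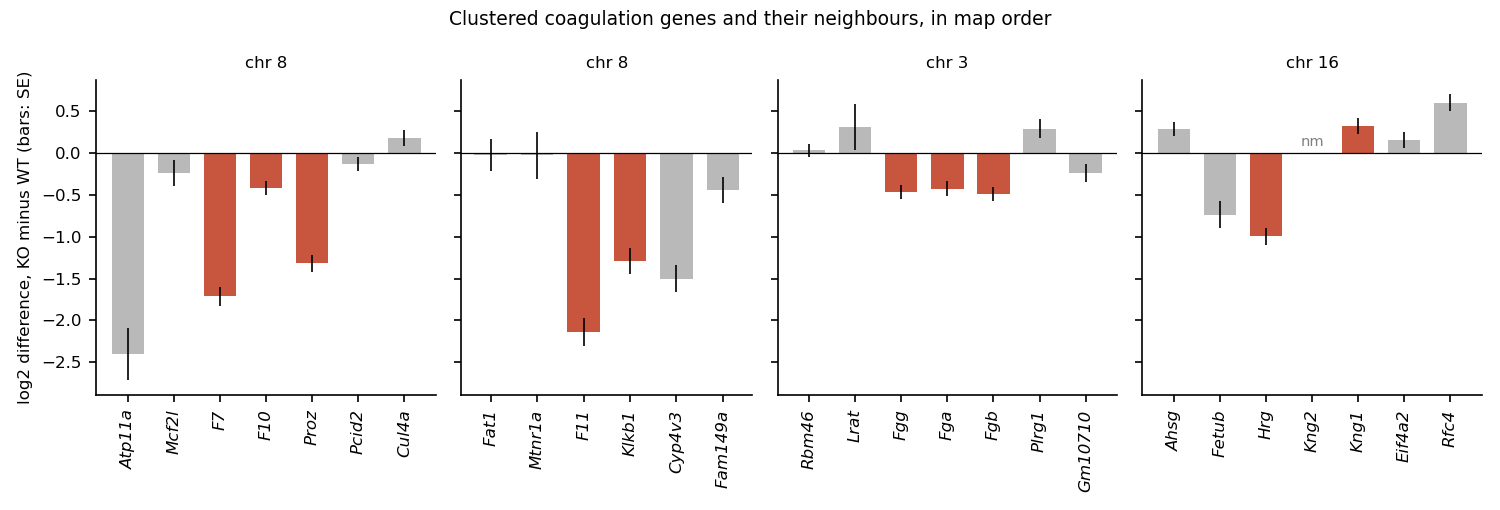
KO minus WT difference on the log2 scale with its SE (vertical axis) for coagulation genes (red) and neighbouring protein-coding genes (grey) in map order (horizontal axis) at 4 loci, where nm marks a gene not measured. In the deposited normalization F7 and Proz stand at -1.71 and -1.32 with F10 at -0.42 between them, and the fibrinogen chains between -0.49 and -0.43 (centring on the spiked controls turns F10 to 0.09 and the chains to 0.02 to 0.09).

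Other genes of haemostasis were taken from a list of 37, of which 32 were measured. In KO livers 11 fell and 2 rose (9.75% and 14.2% of all genes), with a median of -0.19. The falls numbered 7 without WT replicate 1 or KO replicate 1, and the rises 1 without KO replicate 1, 2 or 3. The rises were Anxa2, which binds plasminogen and its tissue activator on cell surfaces (from 8.30 ± 0.44 to 10.39 ± 0.17, SD, n = 3, 4.27-fold, adjusted p = 0.00042), and Plgrkt, a plasminogen receptor (0.71 ± 0.19, adjusted p = 0.0304). A dimmer probe set of Anxa2 gave 0.22 ± 0.11 and did not pass (limma adjusted p = 0.198 over all probe sets). Another, under background, gave -0.03. The largest falls were those of Fgl1, a fibrinogen-like hepatocyte protein (-1.15 ± 0.28), and Serping1, the C1 inhibitor that also blocks factor XII and kallikrein, from 13.17 ± 0.08 to 12.03 ± 0.13 (SD, n = 3, adjusted p = 0.00025). Fibronectin, Fn1, fell by 0.76 ± 0.12, the clearance receptor Lrp1 by 0.75 ± 0.11 and Hgfac, a protease related to factor XII, by 0.62 ± 0.15. Serpina5 passed as lower with all arrays under background. With the arrays centred on the spiked controls 1 of the 32 was lower and 16 were higher, where 2.25% of all genes were lower and 71.3% higher.

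Transcription factors of the liver gave 5 falls and 2 rises among 24 measured genes, against 9.75% and 14.2% of all genes. The falls numbered 2 without KO replicate 1 or 2, and 8 without WT replicate 1 or with quantile normalization. Nr1i3, the xenobiotic receptor CAR, fell 3.13-fold (-1.65 ± 0.15), Onecut1, which encodes HNF6, fell 2.52-fold (-1.33 ± 0.26), and Hlf and Stat3 fell by 0.50 ± 0.13 and 0.50 ± 0.12. Atf4 and the bile acid receptor Nr1h4 rose by 0.79 ± 0.14 and 0.66 ± 0.12. Acute phase proteins, the group of liver proteins to which fibrinogen also belongs, gave 11 falls and 2 rises among 23, and 1 rise without WT replicate 1 or KO replicate 1, 2 or 3. The list was not split by whether a protein rises or falls in an acute phase response. Its counts and median therefore give no direction for that response. Saa1 fell from 12.36 ± 1.26 to 8.97 ± 0.31 (SD, n = 3, adjusted p = 0.00345), as did Saa2 (-3.2 ± 0.69), Saa3 (-2.99 ± 0.16) and Orm2 (-1.91 ± 0.46), while Apcs rose by 2.18 ± 0.23 and Ahsg by 0.28 ± 0.08. The fibrinogen falls of 0.43 to 0.49 are smaller than these named falls, the largest of the list, while the median over all 23 acute phase genes was -0.46. The part of the transcription factors and acute phase genes in the clotting results was not tested. With the arrays centred on the spiked controls 2 transcription factors were lower and 8 higher, and 9 acute phase genes were lower and 9 higher, against the same 2.25% and 71.3% of all genes.

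Markers of the cell types were set beside these results. The mean of 10 hepatocyte markers lay between 13.19 and 13.30 in WT and 13.16 and 13.24 in KO. Of the 10, 2 were lower, Tdo2 (-0.38) and Apoh (-0.32), and 0 higher (9.75% and 14.2% of all genes). Of 12 endothelial markers 6 were lower and 1 higher (9.75% and 14.2% of all genes), with a median of -0.32 and array means of 7.41 to 7.62 in WT and 7.32 to 7.48 in KO. Tie1 fell by 0.61 ± 0.09, and Lyve1 rose from under background to 6.73 ± 0.71 (SD, n = 3). Endothelial genes among the clotting factors, F8, Vwf, Thbd and Procr, did not pass. Of 10 Kupffer cell and macrophage markers 1 was higher (14.2% of all genes), Cd14 (1.45 ± 0.27), with array means of 7.56 to 8.76 in WT and 8.17 to 8.52 in KO. Of 10 stellate and fibroblast markers 3 were lower (9.75% of all genes), among them Lum (-0.79 ± 0.15) and Reln (-0.50 ± 0.09). Their array means were 8.04 to 8.16 in WT and 7.72 to 8.01 in KO. Of 7 platelet markers 0 were called, with array means of 5.56 to 5.82 in WT and 5.44 to 5.68 in KO. Of 6 cholangiocyte markers 1 was lower, Krt19, and of 9 leukocyte markers 1, Ngp (9.75% of all genes). Both were under background on all KO arrays, with WT means of 5.08 and 4.94 near it. Of 4 mesothelial markers 0 passed. Array means were 4.6 to 4.76 in WT and 4.43 to 4.56 in KO for cholangiocytes, 5.04 to 5.89 and 5.01 to 5.59 for leukocytes, and 4.01 to 4.14 and 3.77 to 3.94 for mesothelium. All these marker values are from the deposited normalization, and centring on the spiked controls adds 0.51 to each difference. In the probe sets used here, that exceeds the falls of Tdo2, Apoh and Reln, but not those of Tie1 and Lum. Dimmer probe sets gave -0.91 and -1.01 for Tdo2 and -0.75 for Apoh, falls larger than that amount. The dimmer one of Reln, under background, gave -0.0041. In liver tissue, fewer cells of a type and less RNA per cell cannot be told apart, and the part of the marker shifts in the clotting results was not tested.

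For the targeted transcript, Pex5, the mean was 9.04 ± 0.14 over WT and 9.22 ± 0.11 over KO livers (SD, n = 3, limma adjusted p = 0.262), and the sources do not tell whether its probe set lies in the deleted part. Over all genes 2589 were higher and 1774 lower, or 24.0% in all, with 2385 called without KO replicate 2 and 2588 without KO replicate 1, and the number of arrays limits the precision.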

How the data were processed

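Per the submitters' processing notes the authors made the deposited log2 values with RMA, which corrects background, normalizes quantiles and summarises probe sets, and the log2 scale was read from the values. RMA aligns the arrays, so levels are relative. The titles of the samples give group and replicate.

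Of 45101 probe sets, 34945 have 1 gene symbol in the platform annotation, 932 several, and 9160 (controls aside) are not listed there and are unnamed here. A gene with several probe sets takes the one whose mean over the 6 arrays is highest. limma 3.58.1 in R 4.3.3 (lmFit, eBayes, two-sided, no covariate or filter) was fitted to all 18193 genes. Tested on simulated data over 18193 genes, the fit for KO minus WT recovered 29.9% of changes of 0.5, 74.6% of 1 and 100% of 2. Of the calls made there, 2.16% were false. Far fewer genes were changed in the simulation than were called in the data, so these shares may not carry over.

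The members, lists and tests were chosen with earlier results of these data known. The rule for names covers all listed clotting genes, up to 6 changed genes per direction of the other haemostasis list, up to 4 of the transcription factor and acute phase lists, and up to 3 per marker list. Flanking genes, pairs and motifs were chosen after the values were seen. The alternatives were a replicate block, a filter, 4 other scalings, 2 other ways of choosing probe sets, a trended robust eBayes, weighted arrays, a threshold of 0.01 and leaving out each array.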

Additional observations from a re-analysis of the deposited data

How the results depend on the processing

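Of the values of single genes under alternatives, 480 kept their direction and side of the threshold, 43 lost a call, 10 gained one, 22 reversed with a call on either side and 19 changed sign without one. The falls numbered 17 in the report, 15 to 17 with 1 array left out, and 14 at a threshold of 0.01. The rises, 3 in the report, numbered 0 to 3 with 1 array left out, 0 with quantile normalization or a threshold of 0.01, and 1 with the mean of probe sets, the probe set of highest variance or the replicate block. All genes changed numbered 4363 in the report, 2385 to 4103 with 1 array left out (2385 without KO replicate 2 and 2588 without KO replicate 1) and 2017 at 0.01.

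Centring on 45 control probe sets gave 11561 changed genes, 11 rises and 8 falls among the clotting genes, and medians of 0.019, 0.063 and -0.086 for the procoagulant, anticoagulant and fibrinolytic genes. Centring on 38 gave 13379 changed genes, 13 rises and 8 falls, and medians of 0.091, 0.14 and -0.013. Both constructions add one amount to every gene. The first reversed F2 (0.32), F5 (0.35), F8 (0.31), F10 (0.019), Fga (0.012), Serpina10 (0.37), Serpind1 (0.063) and Plau (0.40). The second reversed F2 (0.40), F5 (0.43), F8 (0.39), F10 (0.091), F12 (0.32), F13a1 (0.33), Fga (0.085), Fgb (0.022), Fgg (0.046), Serpina10 (0.45), Serpind1 (0.14) and Plau (0.47). Kng1 turned to -0.029 with the mean of its probe sets and to -0.38 with the one of highest variance. The filter on low values moved the fibrinolytic median to -0.999 because Plat and Plau left the list.

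With 1 array left out, the medians ran from -0.44 to -0.38, from -0.41 to -0.26 and from -0.56 to -0.50 in the same order of roles. The replicate numbers are shared by the groups. Deviations of same-numbered arrays correlated at 0.10, -0.02 and 0.11, and those of differently numbered arrays at -0.19 to 0.12. With so few arrays these values cannot tell whether the livers were paired. With the replicate block 4089 genes changed, 17 clotting genes fell and 1 rose, F3, while Kng1 (adjusted p = 0.0773) and F2r (0.0653) did not pass. Dim probe sets limit what can be said of F3, F13a1, Procr, Plat and Plau.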

Other observations

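The clock gene Dbp, chosen after its values were seen, stood at 5.33, 10.89 and 11.21 in WT replicates 1, 2 and 3 and at 8.0, 8.52 and 10.30 in KO replicates 1, 2 and 3. Without WT replicate 1, 16 clotting genes fell and 3 rose, and the differences of F7 and F11 were -1.78 to -1.63 and -2.31 to -2.02 over the 6 ways of leaving out an array.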
